A study of Gallus gallus with 9 samples.

Results

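Cytosolic ribosomal protein genes were followed through single-cell RNA sequencing of the chick embryo at the midbrain level. Members were all genes whose symbol is RPS or RPL with a number and at most a short suffix, together with RPSA and the stalk genes RPLP0, RPLP1 and RPLP2 where listed, without the S6 kinase genes. This rule found 67 of the 16880 genes in the files, 24 of the small subunit and 43 of the large subunit. It did not find RPSA, RPS4X, RPL10, RPS27, RPL39 or RPL10L, which have no row under those symbols. In the RefSeq gene table for chicken, RPL26 and RPL39 are given as synonyms of the members RPL26L1 and RPL39L, and RPS4X as a synonym of RPS4Y1, which the rule did not match.

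Ribosomal proteins, together with the ribosomal RNAs, build the small subunit, which decodes the mRNA, and the large subunit, which joins amino acids and carries the flexible stalk that recruits translation factors. Their mRNAs are among the most abundant in growing cells, and many are known to be controlled together at translation. A few members have paralogs that can take their place in the ribosome, and some have functions outside it, such as binding of MDM2 by RPL5 and RPL11.

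The study asked how pluripotency genes persist in the ectoderm and sequenced all tissue of wild-type midbrain slices, with slices of several embryos pooled for each sample. The stages HH5 (Hamburger-Hamilton stage 5, when gastrulation ends), 1ss, 4ss and 7ss (named by the number of somite pairs) had 2 libraries each, and there was 1 library at HH11, a later stage with its own protocol in the labels. All embryos were untreated, and the labels name no batch. The values were UMI counts, that is, counts of distinct captured RNA molecules. Gene levels are written in CPM, which scales the counts of each library or class to a common total of 1000000.

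After filtering, 93718 cells remained, between 5287 and 18966 per library. They carried between 10156770 and 61259469 UMIs per library, with a median of 1132 to 4474.5 UMIs per cell. Mitochondrial genes took 3.98% to 9.48% of the UMIs, and the highest value was that of 4ss replicate 2. Between 7 and 115 cell barcodes were shared by any pair of libraries, at most 0.693% of the smaller one. Libraries of the same stage were pools of embryos whose independence the labels do not describe, so p-values between stages measure the spread between these libraries. Where cells of the same library were compared, p-values measure how the differences within libraries vary from library to library.

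Cells were put in classes by 1 marker each, as cells with UMIs of only 1 of the 4 genes SOX21 (neural), DLX5 (non-neural ectoderm), TWIST1 (mesoderm) and SOX17 (endoderm). A class with under 50 cells in a library was not used there, which removed the SOX17 cells of 7ss replicate 2 and of HH11. Other markers of each germ layer were then compared. By the median CPM over libraries, 6 of the 7 other neural markers were highest in SOX21 cells, 7 of 9 non-neural markers in DLX5 cells, 9 of 10 mesoderm markers in TWIST1 cells and 7 of 9 endoderm markers in SOX17 cells. The keratins KRT7 and KRT18 were not highest in DLX5 cells. The summed non-neural panel ranged from 645 to 3299 CPM in SOX17 cells (median 2100), against 925 to 1578 CPM in DLX5 cells (median 1314). The neural marker PAX6 was highest in DLX5 cells, at 42.2 CPM, against 11.6 CPM in SOX21 cells. MESP1, CLDN18 and NKX2-3 were also not highest in the class of their panel. Markers of endothelium and blood summed to between 16.1 and 622 CPM in SOX17 cells, against 11.8 to 33.8 CPM in SOX21 cells, and notochord markers to between 24.6 and 1295 CPM, against 36.1 to 102 CPM. Neural crest markers summed to between 40.3 and 149 CPM in TWIST1 cells and between 28.8 and 327 CPM in DLX5 cells, against 15.8 to 62.9 CPM in SOX21 cells. The part of these other cells in the class results was not tested.

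Ribosomal protein UMIs made up close to a constant share of each library. The share of all UMIs was 24.7% and 25.4% in the HH5 libraries, 23.1% and 26.5% in those of 1ss, 24.2% in both of 4ss, 23.2% and 23.7% in those of 7ss, and 23.3% at HH11. The 2 libraries of 1ss held both the lowest and the highest value of the series, so the spread within that stage covered the range of all other stages. The mean share was 23.5% ± 0.392 at 7ss and 25.1% ± 0.495 at HH5 (SD, n = 2 libraries each), a difference of -1.60 percentage points. It was -0.71 points as a mean of the share per cell and -2.24 points in cells of at least 2000 UMIs. Both 7ss libraries thus lay below both HH5 libraries, while the 1ss libraries lay on both sides of each. Without mitochondrial UMIs in the total, the 9 libraries ranged from 24.2% to 28.004%. The 95% Wilson intervals of these shares were at most 0.0536 points wide for all cells and 0.289 points for a class. They cover counting error only.

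The share also varied between single cells of a library, and the part of counting error in this was not tested. The middle 50% of cells held 22.8% to 25.9% ribosomal protein UMIs in HH5 replicate 1 and 20.1% to 25.2% in 4ss replicate 2. The share moved with depth, but not steadily upward. In all 9 libraries it was higher in cells of 4000 to 8000 UMIs than in cells of 500 to 1000 UMIs. In 4ss replicate 2 it was 26.2% in the deeper cells and 20.8% in the shallower ones, and in 1ss replicate 1 it was 23.2% and 22.4%. In cells of 8000 to 16000 UMIs it was 22.1% at HH11 and 22.9% in 7ss replicate 2. These values lay below the 22.2% and 23.1% of the cells of 500 to 1000 UMIs there. In the other libraries with at least 50 cells of 8000 to 16000 UMIs, the share stayed above that of the shallowest cells. Droplets with at most 100 UMIs, taken as empty, held 14.8% to 20.1% ribosomal protein UMIs in the libraries of HH5 to 7ss, below the cells of the same library. At HH11 the order was the opposite, with 26.9% in empty droplets and 23.3% in cells, and mitochondrial UMIs made up 5.61% of the empty droplets there, the lowest value of the 9 libraries.

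**Figure D1:**
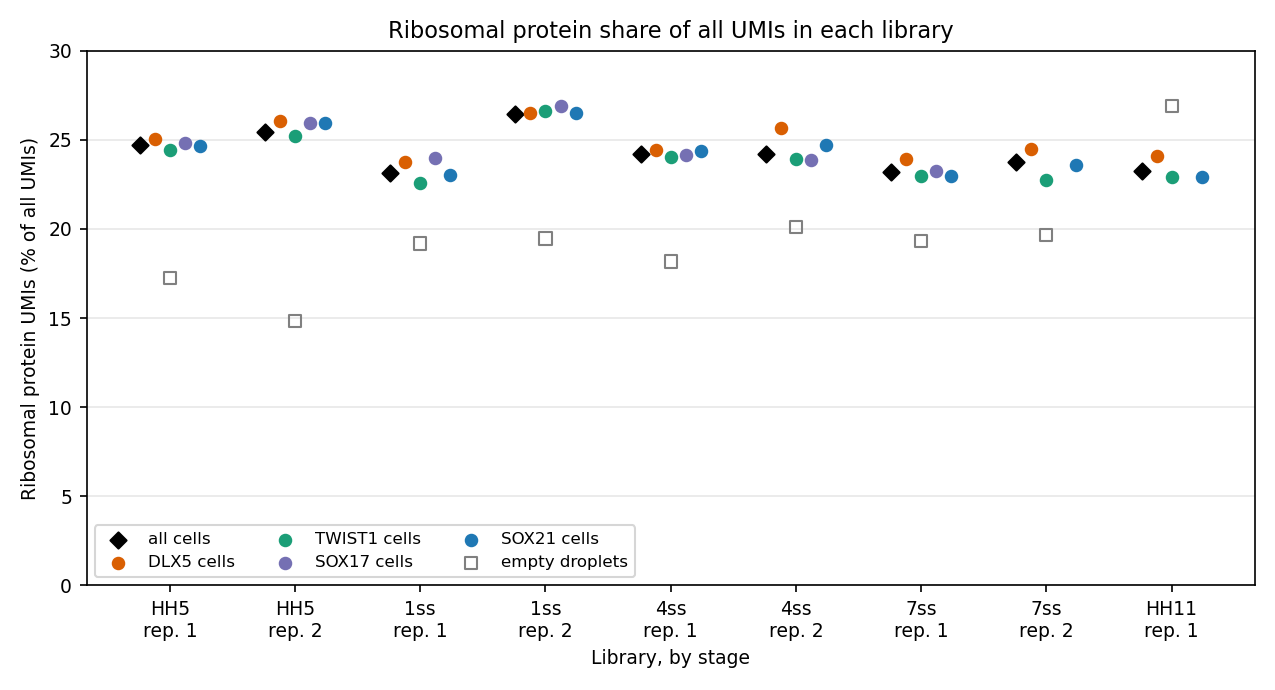
Ribosomal protein UMIs as a percent of all UMIs (y axis, from 0) in each of the 9 libraries (x axis, by stage). Diamonds are all cells, coloured points the 4 marker classes and open squares the empty droplets, which lie below the cells in every library but HH11, where they reach 26.9%.

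The classes differed by less than the libraries. DLX5 cells had the higher share in 8 of 8 libraries, with a mean of 24.98% in DLX5 cells and 24.5% in SOX21 cells and a mean difference of 0.50 ± 0.43 points (SD over 8 libraries). The difference was 0.345 and 0.0841 points in the HH5 libraries, 0.735 and 0.0123 points in those of 1ss, 0.0171 and 0.988 points in those of 4ss, and 0.930 and 0.896 points in those of 7ss. It was thus close to nothing in 1ss replicate 2 and 4ss replicate 1 and near 1 point in 3 libraries. Without mitochondrial UMIs in the total, DLX5 cells were higher in 7 of 8 libraries, HH5 replicate 2 was at -0.0964 points, and the mean difference was 0.51 ± 0.47 points. At HH11 it was 1.20 points. Within bins of equal UMIs per cell, DLX5 cells were higher in 22 of 34 bins, with a median difference of 0.22 points.

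TWIST1 cells had the lower share in 7 of 8 libraries, with a mean of 24.1% in TWIST1 cells and 24.5% in SOX21 cells and a mean difference of -0.41 ± 0.35 points. The exception was 1ss replicate 2, with 26.6% in TWIST1 cells and 26.5% in SOX21 cells. In 7ss replicate 1, counted as lower, the difference was only -0.0037 points, and at HH11 it was 0.0001 points. In 4ss replicate 2 the difference was -0.769 points, but mitochondrial UMIs were 10.3% in TWIST1 cells and 7.47% in SOX21 cells there, and without them the difference was -0.0106 points. SOX17 cells were higher in 4 of 7 libraries and lower in 3, with a mean difference of 0.10 ± 0.54 points, which is within its spread. Without mitochondrial UMIs the mean difference was 0.35 ± 0.57 points, and as a mean of the share per cell it was -0.12 points. Within bins of equal UMIs per cell, which 3 libraries allowed, SOX17 cells were higher in 8 of 10 bins, with a median difference of 0.28 points, and TWIST1 cells were lower in 28 of 37, with a median of -0.24 points. Median UMIs per cell were higher in DLX5 cells than in SOX21 cells in 4 of 8 libraries, in TWIST1 cells in 4 of 8 and in SOX17 cells in 2 of 7.

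Below this flat total, single members varied widely between libraries, and the variation did not follow stage alone. RPS2, a small subunit protein near the mRNA entry, had 4419 and 1139 CPM in the HH5 libraries, 2215 and 1699 CPM at 1ss, 2085 and 6304 CPM at 4ss, 6120 and 6495 CPM at 7ss, and 5290 CPM at HH11. RPS3, its neighbour at the mRNA entry, had 1749 and 829 CPM at HH5, 1136 and 1102 CPM at 1ss, 1170 and 3380 CPM at 4ss, 2895 and 3484 CPM at 7ss, and 3122 CPM at HH11. In both genes 4ss replicate 2 was at the level of the 7ss libraries, 4ss replicate 1 was at the level of 1ss, and HH5 replicate 1 lay above HH5 replicate 2. RPLP1, a protein of the stalk, ran the other way, with 13923 and 19619 CPM at HH5, 18220 and 21184 CPM at 1ss, 18843 and 9103 CPM at 4ss, 9593 and 8103 CPM at 7ss, and 7147 CPM at HH11. RPL21, a large subunit protein, had 7642 and 14107 CPM at HH5, 9270 and 13098 CPM at 1ss, 10378 and 5870 CPM at 4ss, 6155 and 5056 CPM at 7ss, and 4641 CPM at HH11. RPS2 and RPS3 fell outside the rule for named genes and were chosen after their values were seen.

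The balance between the subunits shifted in the same libraries. Small subunit genes made up 37.0% and 32.6% of ribosomal protein UMIs in the HH5 libraries, 31.9% and 31.7% in those of 1ss, 32.5% and 38.9% in those of 4ss, 37.6% and 38.7% in those of 7ss, and 38.4% at HH11. The libraries therefore lay either between 31.7% and 32.6% or between 37.0% and 38.9%, and the replicates of HH5 and of 4ss lay on different sides.

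**Figure D2:**
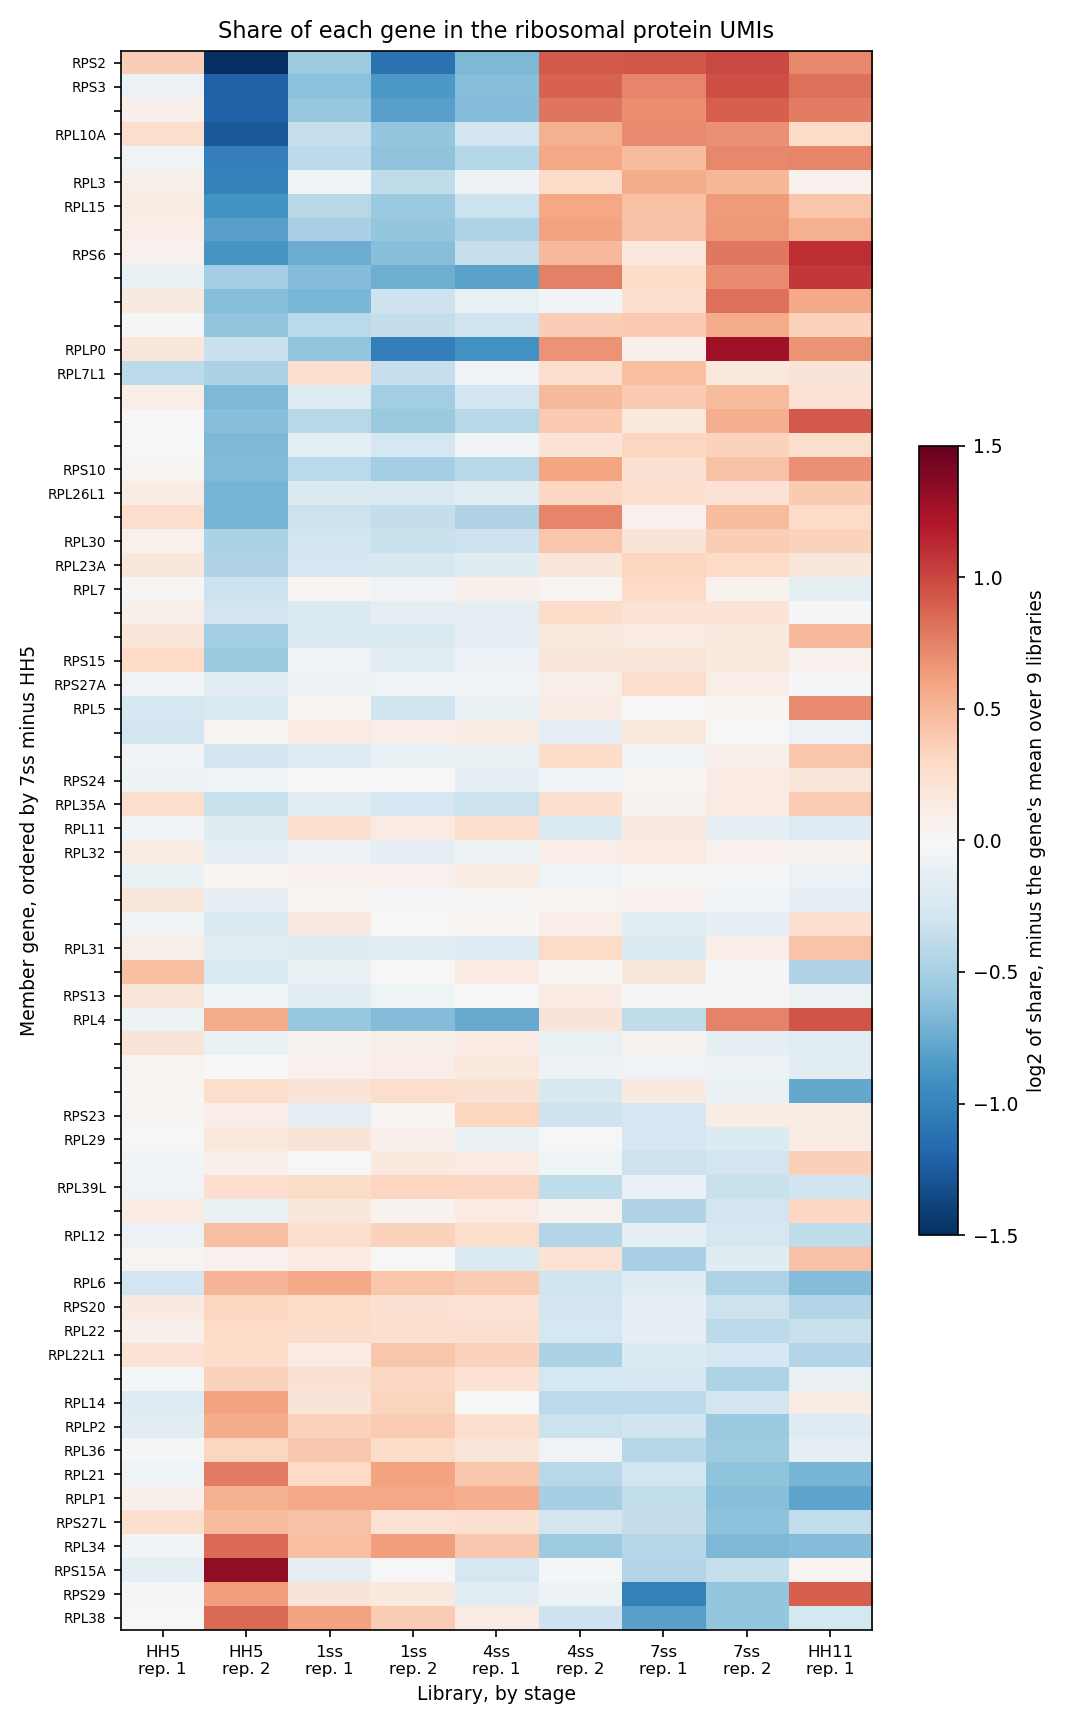
Share of each gene in the ribosomal protein UMIs of a library, as log2 minus the mean of that gene over the 9 libraries (colour), for the 66 members with at least 100 UMIs in every library (rows, ordered by 7ss minus HH5, with some of the genes labelled) and the 9 libraries (columns). HH5 replicate 2, the 1ss libraries and 4ss replicate 1 share a pattern that is inverted in 4ss replicate 2, the 7ss libraries and HH11, while HH5 replicate 1 stays near 0.

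The differences between replicates of HH5 and of 4ss were as large as those between stages. Over the 66 members with at least 100 UMIs in every library, the log2 share within the ribosomal protein UMIs changed by more than 0.5 in 30 members for 7ss against HH5. The same held for 29 members for 4ss replicate 2 against replicate 1, and for 33 members for HH5 replicate 1 against replicate 2. The replicates of 1ss and of 7ss were closer, with 2 and 4 such members. Across the 66 members, the 4ss replicate difference and the difference of 7ss from HH5, which share no library, had a Pearson r of 0.806, given as a description of these libraries, and the same sign in 53 members. RPS2 had the highest value in both, 1.60 between the 4ss replicates and 1.59 between 7ss and HH5. RPS29 and RPS15A, small subunit proteins, were exceptions, with 0.08 and 0.24 between the 4ss replicates and -1.10 and -0.98 between 7ss and HH5.

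**Figure D3:**
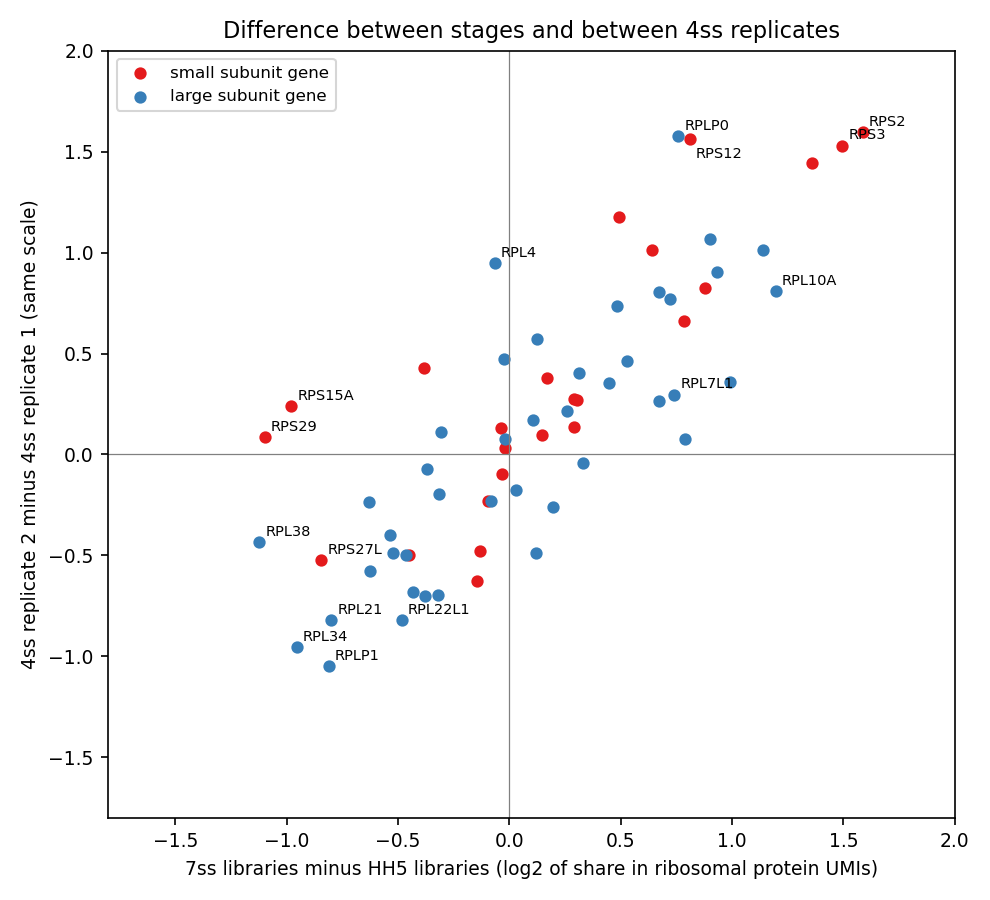
Log2 difference in the share of each of 66 members within the ribosomal protein UMIs, for 7ss minus HH5 (x axis, means over 2 libraries each) and for 4ss replicate 2 minus 4ss replicate 1 (y axis). Red points are small subunit genes and blue points large subunit genes. RPS2 and RPS3 are high on both axes, RPLP1, RPL34 and RPL21 are low on both, and RPS29 and RPS15A are low on the x axis alone.

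This library pattern was found in SOX21 cells, TWIST1 cells and empty droplets alike. The 4ss replicate difference had an r of 0.995 between SOX21 cells and TWIST1 cells over the 66 members, with the same sign in all 66. Between cells and empty droplets of the same libraries it had an r of 0.977, with the same sign in 62 members. The difference of 7ss from HH5 had an r of 0.970 between cells and empty droplets. Empty droplets are filled from the same suspension as the cells, so these values describe how evenly the pattern was spread over a library. The labels hold no batch, date or transcript feature that could be set beside it, and its source was not tested.

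Few members passed the test across stages, and so did few of all genes tested. Each stage was compared with HH5 by edgeR's quasi-likelihood test on the sums of all cells, with Benjamini-Hochberg adjustment over 12561 genes. For 1ss, 0 of 67 members were called, where 0.0557% of all genes tested were. An unadjusted p under 0.05 was found in 0 members and in 992 of the 12561 genes. For 4ss, 0 of 67 members were called, where 0.796% of all genes were. An unadjusted p under 0.05 was found in 1 member and in 1876 of the 12561 genes. DESeq2 also called 0 members in either comparison, with 2 at 1ss and 3 at 4ss under an unadjusted 0.05. It called 112 of 12561 genes at 1ss and 391 at 4ss, with 934 and 1858 under an unadjusted 0.05. The median log2 change of the members was -0.03 at 1ss and 0.11 at 4ss, beside -0.02 and -0.02 over all genes tested. At 1ss the members ranged from -0.92 in RPL4 to 0.35 in RPL7L1.

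For 7ss against HH5, 3 of 67 members were called lower, where 4.94% of all genes were, and 0 were called higher, where 4.16% of all genes were. RPL38, a large subunit protein known in mouse for a part in axial skeletal patterning, had 1426 and 1721 CPM at 7ss, against 2687 and 4950 CPM at HH5. It fell by 1.24 on the log2 scale (SE 0.301, edgeR adjusted p 0.0375). RPS29, a small zinc-binding protein of the small subunit, had 668 and 921 CPM at 7ss, against 1413 and 2281 CPM at HH5, and its log2 change was -1.18 (SE 0.285, edgeR adjusted p 0.0371). RPS27L, a paralog of RPS27 and a target of p53 in human cells, had 58.0 and 49.8 CPM at 7ss, against 93.5 and 114 CPM at HH5, and its log2 change was -0.90 (SE 0.213, edgeR adjusted p 0.0353). Genes were named only where the groups did not overlap, so the lack of overlap in these 3 genes is no further support. In 4ss replicates 1 and 2, RPL38 had 2851 and 2109 CPM, RPS27L 92.2 and 64.1 CPM, and RPS29 1259 and 1335 CPM. RPL38 and RPS27L were thus lower in 4ss replicate 2, the direction of 7ss from HH5, and RPS29 was not. The part of the library pattern in these calls was not tested. At HH11 RPS29 was at 2520 CPM, above the other 8 libraries, while RPS27L was at 58.0 CPM and RPL38 at 2096 CPM.

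The other members at 7ss spread in both directions without passing the test. Over all 67 members, the 3 called ones included, the median log2 change was 0.03, beside -0.04 over all genes, with 34 above 0. In 18 members the change was above 0.5 and in 15 below -0.5, and the median SE was 0.295. RPS3 had the highest value, 1.33 (SE 0.517, edgeR adjusted p 0.122), followed by RPS2 with 1.20 (SE 0.646, adjusted p 0.237). RPS15A was at -1.22 (SE 0.429, edgeR adjusted p 0.0949). Of the stalk, RPLP0 was at 0.79, RPLP1 at -0.88 and RPLP2 at -0.72 (edgeR adjusted p 0.338, 0.122 and 0.153). RPS6, the target of the S6 kinases, was at 0.78, RPS27A, made as a fusion with ubiquitin, at 0.23, RPL5 at 0.20 and RPL11 at 0.06 (edgeR adjusted p 0.236, 0.561, 0.577 and 0.882).

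The number of these calls changed when 1 library was left out. Counts over all genes in those fits are not reported here, so the changes are not particular to the members. The 3 calls became 0 without HH5 replicate 2, without either 1ss library or without either 7ss library, 6 without HH5 replicate 1, and 9 without either 4ss library. DESeq2 called 7 members, 1 higher and 6 lower, where it called 909 of 12561 genes higher and 1081 lower.

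The stage comparison was repeated within a germ layer. In SOX21 cells, 3 of 67 members were called lower at 7ss, where 4.41% of the 10796 genes tested were, and 0 higher, where 3.22% were. They were again RPL38 (log2 change -1.17, SE 0.283, edgeR adjusted p 0.0358), RPS29 (-1.12, SE 0.285, adjusted p 0.0412) and RPS27L (-0.84, SE 0.213, adjusted p 0.0406). In TWIST1 cells, 2 of 66 members were called lower, where 5.64% of 9975 genes were, and 0 higher, where 5.46% were. These were RPS29 (-1.32, SE 0.314, edgeR adjusted p 0.0226) and RPL38 (-1.23, SE 0.310, adjusted p 0.0278). RPS27L was at -0.36 in TWIST1 cells (SE 0.234, edgeR adjusted p 0.326) and was not called. The median over members was 0.02 in SOX21 cells and -0.08 in TWIST1 cells, beside -0.01 and 0.01 over all genes.

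The stage change itself differed between TWIST1 cells and SOX21 cells in 6 of 67 members, tested as the difference of the changes with the library as a block. The change was called higher in TWIST1 cells in 1 member, where 11.9% of 10814 genes were, and lower in 5, where 14.0% were. TWIST1 cells had more UMIs per cell than SOX21 cells in both 7ss libraries by the median, and the part of this was not tested. RPS27L had 56.0 and 50.5 CPM in the TWIST1 cells of 7ss, against 59.7 and 74.0 CPM at HH5, and 53.6 and 46.3 CPM in the SOX21 cells of 7ss, against 86.3 and 99.3 CPM at HH5. The difference of its changes was 0.51 (SE 0.124, edgeR adjusted p 0.000788).

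RPL7L1, a paralog of RPL7, had 408 and 331 CPM in the TWIST1 cells of 7ss, against 290 and 278 CPM at HH5, and 380 and 319 CPM in the SOX21 cells of 7ss, against 226 and 193 CPM at HH5. The difference of its changes was -0.41 (SE 0.0866, edgeR adjusted p 0.000109). RPL5 (-0.27), RPL21 (-0.23), RPL6 (-0.22) and RPL29 (-0.18) were the other 4, all of the large subunit. The median over members was -0.08, beside 0.00 over all genes. Without TMM scaling the calls were split 2 higher and 2 lower, and the median was 0.01. Over all 10814 genes, 1590 were called higher and 1122 lower there, with a median of 0.09.

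Between classes of the same libraries the differences were small. DLX5 cells were compared with SOX21 cells in the 8 libraries of HH5 to 7ss, with the library as a block. Of 66 members tested, 12 were called higher, where 13.4% of 10638 genes were, and 0 lower, where 11.9% were. A value above 0 was found in 65 of 66, with a median of 0.07 beside -0.01 over all genes. Without TMM factors 50 of 66 were above 0, with a median of 0.03 beside -0.05 over all genes, and 11 were called, all higher. Over all genes, 1266 of 10638 were called higher there. RPS27L was called with 0.49 (SE 0.0830, edgeR adjusted p 4.11e-05) and RPS23, a protein of the decoding centre, with 0.25 (SE 0.0570, adjusted p 0.00153). RPL12, at the base of the stalk, RPL31 and RPL36 were called with 0.14, 0.13 and 0.13 (edgeR adjusted p 0.0103, 0.00472 and 0.0117). These 5 genes had the largest called values among members higher in 8 of 8 libraries, which was a condition for naming them. RPL3, RPL10A, RPL22L1, RPL32, RPL39L, RPS2 and RPS3 were the other 7, with values from 0.09 to 0.17. Of these, RPL22L1 (0.169) and RPL3 (0.141) lay above RPL12 (0.136) but were higher in 7 of 8 libraries.

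RPS23 had 3406 and 3948 CPM in the DLX5 cells of HH5, 3172 and 3517 CPM at 1ss, 4155 and 2732 CPM at 4ss, and 2468 and 3253 CPM at 7ss. In SOX21 cells it had 3229 and 2975 CPM at HH5, 2401 and 3264 CPM at 1ss, 3394 and 2306 CPM at 4ss, and 2330 and 3137 CPM at 7ss. The classes overlapped across libraries and separated within each. DESeq2 called 39 members, all higher, scaling on the genes outside the list gave 20, all higher, and without the library block 0 members were called. Over all 10638 genes, DESeq2 called 1613 higher and the scaling on other genes 1464. The count over all genes without the library block is not reported here.

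In TWIST1 cells against SOX21 cells, 4 of 66 members were called higher, where 20.2% of genes were, and 10 lower, where 19.5% were. The median was -0.04, beside 0.00 over all genes, with 47 of 66 below 0. RPL14, of the large subunit, had the lowest called value, -0.16 (SE 0.0389, edgeR adjusted p 0.00181), and RPL38 followed with -0.15 (SE 0.0390, adjusted p 0.00317). RPS10, RPS24 and the stalk gene RPLP2 had -0.12 each (edgeR adjusted p 0.00793, 0.00476 and 0.00551). RPL15, RPL35A, RPS13 and RPS15 were also called lower, and all 10 were lower in 8 of 8 libraries. RPL38 had 2486 and 4336 CPM in the TWIST1 cells of HH5, 3283 and 3280 CPM at 1ss, 2590 and 1961 CPM at 4ss, and 1378 and 1629 CPM at 7ss. In SOX21 cells it had 2811 and 4585 CPM at HH5, 3804 and 3758 CPM at 1ss, 2870 and 2208 CPM at 4ss, and 1455 and 1731 CPM at 7ss.

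The 4 members called higher in TWIST1 cells were RPL7L1 (0.20, SE 0.0775), RPL22L1 (0.12, SE 0.0502), RPS29 (0.12, SE 0.0400) and RPL39L (0.12, SE 0.0373), with edgeR adjusted p of 0.0417, 0.04995, 0.0166 and 0.0112. RPS29 and RPL39L were higher in 8 of 8 libraries, RPL7L1 in 7 and RPL22L1 in 6. RPS27L had the lowest value of all members, -0.20 (SE 0.0835, edgeR adjusted p 0.0548), and was not called. Without the library block 0 members were called, and without 4ss replicate 2 the calls were 3 higher and 20 lower. Counts over all genes in these fits are not reported here.

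In SOX17 cells against SOX21 cells, 2 of 66 members were called higher, where 16.6% of genes were, and 21 lower, where 20.8% were. The direction of the many small changes depended on the scaling. DESeq2 called 10 higher and 2 lower, and edgeR without TMM factors 9 higher and 13 lower. The choice of cells mattered too. With at least 2 UMIs of the marker and TMM factors kept, 2 were called higher and 0 lower. The count over all genes with that choice is not reported here. Over all 10638 genes, DESeq2 called 2111 higher and 1739 lower, and edgeR without TMM factors 1863 and 2063. The median of the members was -0.08 with TMM factors, -0.03 without them and 0.00 with DESeq2, beside -0.06, -0.04 and 0.01 over all genes. The calls numbered 12 without 4ss replicate 1 and 15 without 1ss replicate 1 or 7ss replicate 1. Counts over all genes in these fits are not reported here.

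RPS27L and RPS20 were the 2 members called higher in SOX17 cells. RPS27L changed by 0.65 (SE 0.101, edgeR adjusted p 7.39e-06) and kept its call under all 20 alternatives. RPS20, a protein of the small subunit head, had 9855 and 11212 CPM in the SOX17 cells of HH5, 10921 and 13170 CPM at 1ss, 12174 and 7434 CPM at 4ss, and 8962 CPM at 7ss. In SOX21 cells it had 8812 and 11033 CPM at HH5, 9141 and 10102 CPM at 1ss, 8990 and 6718 CPM at 4ss, and 6833 CPM in the same 7ss library. It was higher in 7 of 7 libraries, by 0.21 on the log2 scale (SE 0.0445, edgeR adjusted p 0.000399). Among called members lower in 7 of 7 libraries, a condition for naming, RPLP2, RPL30, RPL3, RPL23A and RPL5 had the largest falls. Their log2 changes ran from -0.16 to -0.13, with edgeR adjusted p from 0.000630 to 0.0424. RPL4 and RPL8 had larger called falls, -0.18 each, and were lower in 6 of 7 libraries. RPL5 kept its call in 6 of 20 alternatives and RPLP2 in 18.

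**Figure D4:**
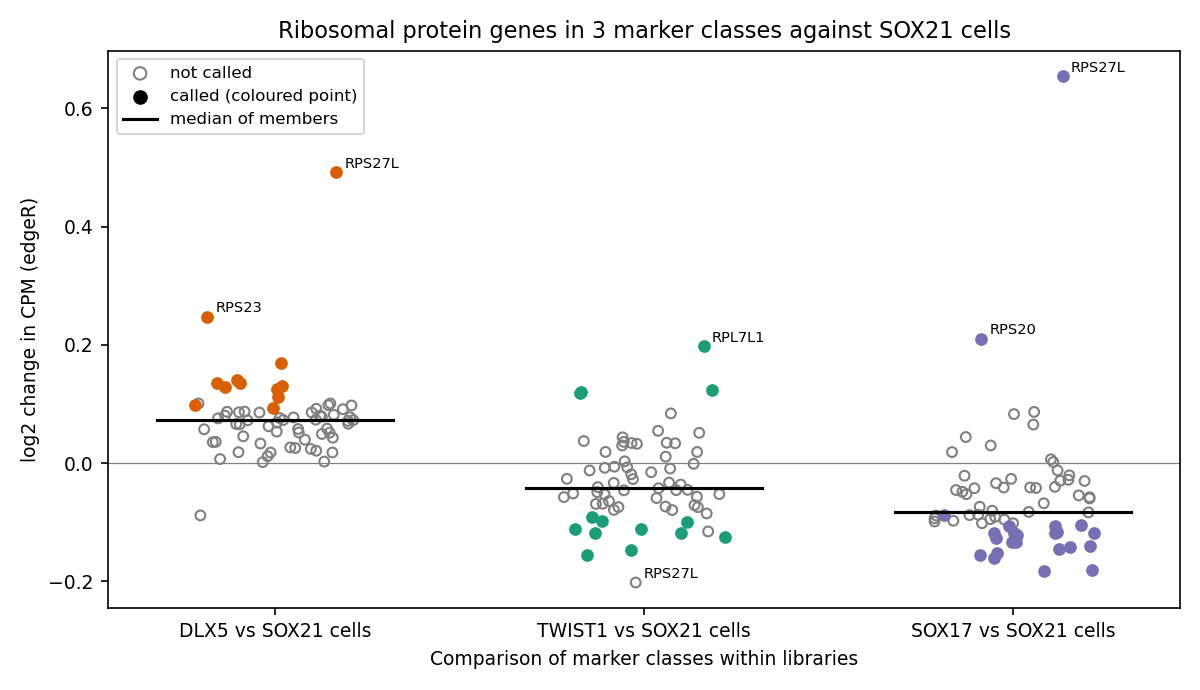
Log2 change of the 66 members tested in DLX5, TWIST1 and SOX17 cells, each against SOX21 cells of the same libraries (y axis, edgeR with the library as a block). Filled points passed an adjusted p of 0.05, open points did not, and the bar is the median of the members, at 0.07, -0.04 and -0.08. RPS27L lies apart at 0.49 in DLX5 cells and 0.65 in SOX17 cells.

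Of the paralogs, RPS27L had the widest fitted differences in DLX5 and SOX17 cells against SOX21 cells. RPS27L had 110 and 159 CPM in the DLX5 cells of HH5, 131 and 124 CPM at 1ss, 112 and 81.5 CPM at 4ss, and 74.2 and 65.2 CPM at 7ss. In SOX17 cells it had 129 and 138 CPM at HH5, 134 and 130 CPM at 1ss, 196 and 90.2 CPM at 4ss, and 80.6 CPM at 7ss. In SOX21 cells it had 86.3 and 99.3 CPM at HH5, 100.04 and 97.2 CPM at 1ss, 77.5 and 61.8 CPM at 4ss, and 53.6 and 46.3 CPM at 7ss. DLX5 and SOX17 cells were above SOX21 cells in every library of these stages. At HH11 it had 64.5 CPM in DLX5 cells and 65.3 CPM in SOX21 cells.

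RPL22L1, the paralog of RPL22, had 1573 and 1598 CPM in the DLX5 cells of 7ss, 1678 and 1566 CPM in TWIST1 cells and 1319 and 1374 CPM in SOX21 cells. At HH5 it had 2200 and 2249 CPM in DLX5 cells, 2324 and 2343 CPM in TWIST1 cells and 2067 and 2347 CPM in SOX21 cells. It was higher in DLX5 than in SOX21 cells in 7 of 8 libraries (0.17, SE 0.0502, edgeR adjusted p 0.0128). Its partner RPL22 had values of 0.09 in DLX5 cells and -0.08 in TWIST1 cells (edgeR adjusted p 0.0716 and 0.0932), so in TWIST1 cells the value of RPL22 was below 0 and that of RPL22L1 above it. The difference between the paralogs was not tested.

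RPL7L1 was lower in DLX5 than in SOX21 cells in 8 of 8 libraries, at -0.09 (SE 0.0780), without passing the test (edgeR adjusted p 0.452), and its partner RPL7 was at 0.08 (adjusted p 0.224). RPL39L and RPL26L1 have RPL39 and RPL26 as RefSeq synonyms, so their values may be those of the standard members. RPL39L was higher in both DLX5 and TWIST1 cells than in SOX21 cells, by 0.11 and 0.12 (edgeR adjusted p 0.0269 and 0.0112). RPL26L1 was at 0.01 in DLX5 cells and -0.07 in TWIST1 cells (edgeR adjusted p 0.884 and 0.182). RPL3L, the muscle paralog of RPL3, had between 0.315 and 1.39 CPM in the 9 libraries, from 9 to 85 UMIs, and passed the filter on low counts in the fits of all cells, of SOX21 cells and of the stage changes but not in those of TWIST1 cells or between classes.

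**Figure D5:**
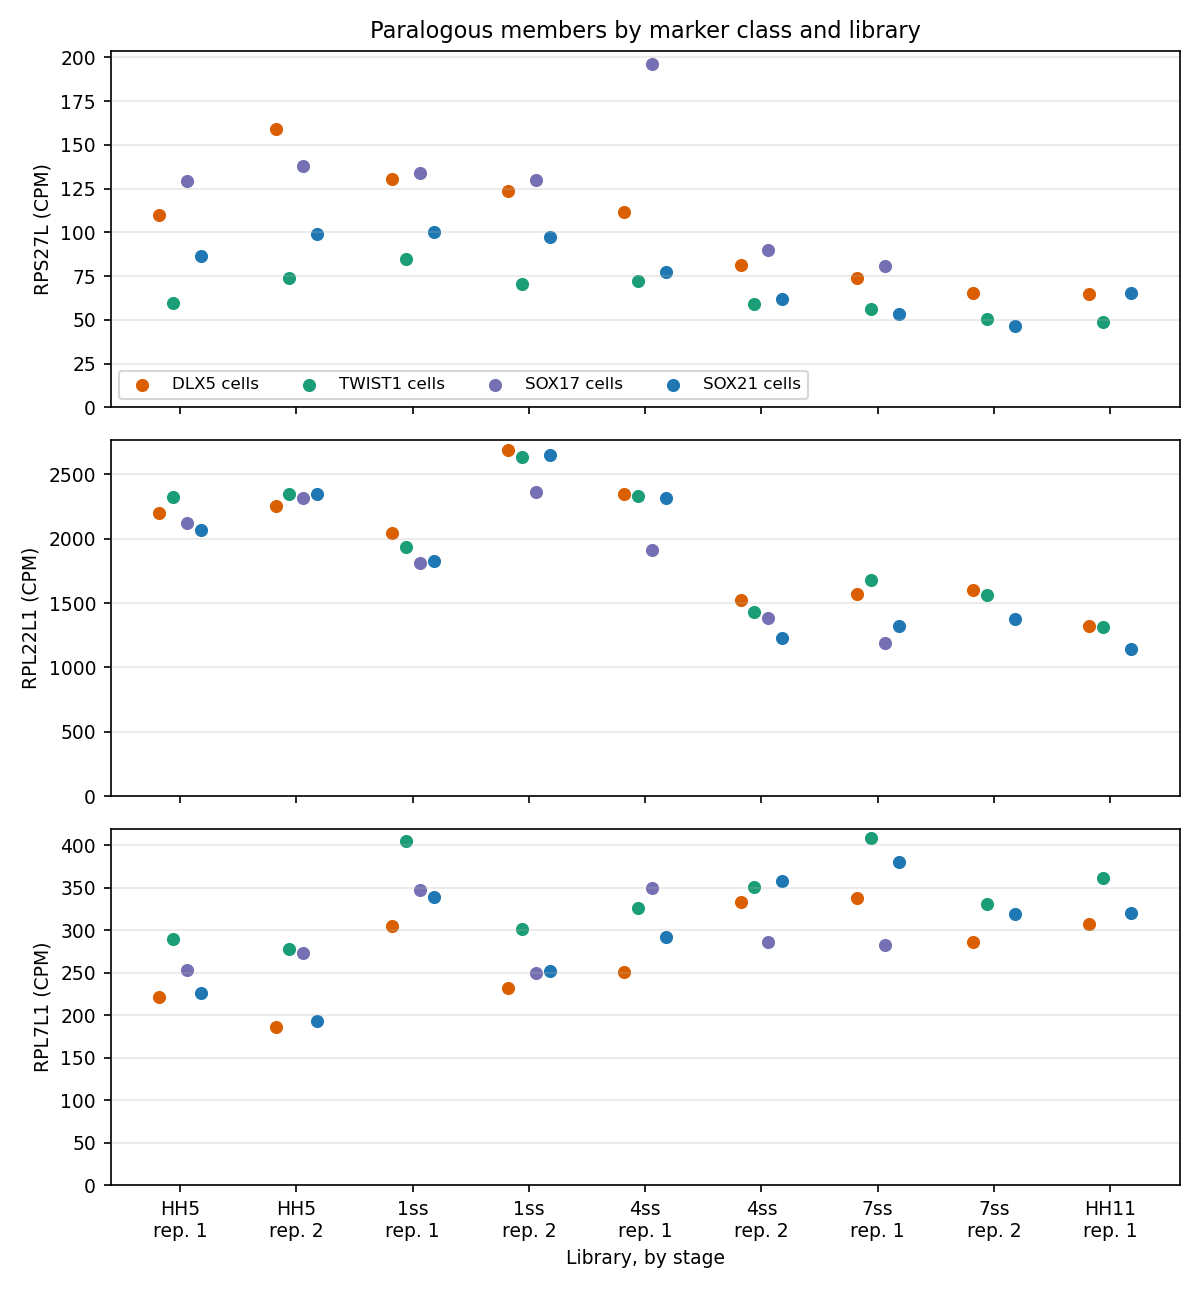
CPM (y axes, from 0) of RPS27L, RPL22L1 and RPL7L1 in DLX5, TWIST1, SOX17 and SOX21 cells of each library (x axis, by stage). RPS27L lies higher in DLX5 and SOX17 cells than in SOX21 cells in all libraries from HH5 to 7ss, and all classes are lower in 4ss replicate 2 and at 7ss than in most earlier libraries.

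Some genes for ribosomal proteins lay outside the symbol rule. RPS4Y1, listed in RefSeq as the chick RPS4, had 1800 and 973 CPM at HH5, 1175 and 1036 CPM at 1ss, 1100 and 2424 CPM at 4ss, 2026 and 2487 CPM at 7ss, and 2421 CPM at HH11. As in RPS2 and RPS3, 4ss replicate 2, both 7ss libraries and HH11 lay above the other 5 libraries. RPL36AL had 2763 and 3951 CPM at HH5, 3386 and 3890 CPM at 1ss, 3235 and 2485 CPM at 4ss, 2231 and 1924 CPM at 7ss, and 2287 CPM at HH11. Both were chosen after their values were seen. FAU, which encodes a ribosomal protein fused to a ubiquitin-like domain, had a log2 change at 7ss of -0.07 (edgeR adjusted p 0.859).

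Genes of the machinery that makes and uses ribosomes were also tested. Of 60 ribosome biogenesis genes tested, 42 were called lower in SOX17 cells than in SOX21 cells, where 20.8% of all genes were, and 0 higher, where 16.6% were, with a median of -0.38. NPM1, a nucleolar chaperone, was at -0.67 and NCL, nucleolin, at -0.45 (edgeR adjusted p 1.00e-10 and 2.11e-08). In DLX5 cells 15 of 60 were called lower and 0 higher, where 11.9% and 13.4% of all genes were, with a median of -0.15, while the ribosomal proteins there had a median of 0.07. In TWIST1 cells 2 of 60 were called higher and 7 lower, where 20.2% and 19.5% of all genes were.

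For the stage change in TWIST1 cells minus that in SOX21 cells, 42 of the 60 biogenesis genes were called lower and 0 higher, where 14.0% and 11.9% of all genes were, with a median of -0.40. Of the 67 ribosomal protein genes, 5 were called lower and 1 higher there. In other lists too, this difference was called lower more often than higher. Of 38 initiation and elongation factors, 17 were called lower and 2 higher (median -0.21). Of 68 mitochondrial ribosomal protein genes, 27 were called lower and 1 higher (median -0.23). For 7ss against HH5, the medians of these lists were 0.00 and -0.04 in TWIST1 cells and 0.11 and 0.19 in SOX21 cells. Median UMIs per cell also differed between these classes at 7ss, and the part of this was not tested. At 7ss against HH5, 1 of 60 biogenesis genes, the helicase gene DDX18, was called lower in all cells, where 4.94% of all genes were (-1.16, SE 0.275, edgeR adjusted p 0.0357). DDX18 had 57.8 and 89.0 CPM at HH5, 26.9 and 37.2 CPM at 7ss, and 103 CPM at HH11. In TWIST1 cells 9 of 60 were called lower, where 5.64% of all genes were, NOP56 among them (-1.17, SE 0.2501, adjusted p 0.0149). At 7ss in TWIST1 cells, 6 of 38 initiation and elongation factors were also called lower, and 0 higher, where 5.46% of all genes were.

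Of 38 initiation and elongation factors, 2 were called higher and 19 lower in SOX17 cells, 4 higher and 5 lower in TWIST1 cells, and 5 higher and 1 lower in DLX5 cells. Over all genes, 16.6% were called higher and 20.8% lower in SOX17 cells, 20.2% and 19.5% in TWIST1 cells, and 13.4% and 11.9% in DLX5 cells. EIF4A2, a helicase of the initiation complex, was the 1 factor called at 7ss in all cells, where 4.94% of all genes were called lower (-1.38, SE 0.334, edgeR adjusted p 0.0371). EIF4A2 had 402 and 235 CPM at HH5, 182 and 99.1 CPM at 4ss, 93.5 and 147 CPM at 7ss, and 592 CPM at HH11. The 68 mitochondrial ribosomal protein genes, which serve the separate ribosome of mitochondria, had 7 called higher and 0 lower in DLX5 cells, 9 and 14 in TWIST1 cells, and 1 and 31 in SOX17 cells, beside the same shares over all genes. Together they took 0.930% to 1.13% of UMIs in the 9 libraries. Initiation and elongation factors took 2.85% to 3.46%, and biogenesis genes 1.09% to 1.29% from HH5 to 7ss and 1.74% at HH11.

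The 9 growth signalling genes tested held MYC and MYCN, which drive ribosome production in many cell types. MYCN was at -1.84 in TWIST1 cells, -1.60 in SOX17 cells and -0.96 in DLX5 cells against SOX21 cells (edgeR adjusted p 1.24e-12, 5.95e-08 and 5.75e-07). MYC was at 1.37 in TWIST1 cells and 1.30 in SOX17 cells (edgeR adjusted p 9.81e-08 and 6.88e-05). In TWIST1, SOX17 and DLX5 cells the ribosomal protein medians were -0.04, -0.08 and 0.07, and those of ribosome biogenesis genes -0.02, -0.38 and -0.15. A link of either list to MYC or MYCN was not tested.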

How the data were processed

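The authors deposited UMI counts, raw whole numbers per gene and barcode from 10x Genomics 3' libraries. By the labels and methods they were counted with Cell Ranger (6.1.1 in the submitters' notes, another release in the methods) on GRCg6a, a chicken assembly, whose annotation the authors had extended at selected 3' ends. File headers name another release for HH11. Reads from near-identical gene copies cannot be told apart in such counts. Both filtered and raw matrices were used. Of 107749 barcodes, those with 200 to 4000 genes and at most 40% of UMIs from 13 mitochondrial genes were kept (the methods' limit, printed there as a percentage, was read as a fraction). Expected doublets (0.8% per 1000 barcodes) were removed after scoring against artificial doublets, and free RNA was not subtracted. Empty droplets were barcodes with at most 100 UMIs.

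Counts were summed per library and class. The test was edgeR 4.0.16 in R 4.3.3, beside limma 3.58.1, on these sums (TMM, filterByExpr, quasi-likelihood F test, two-sided, Benjamini-Hochberg at 0.05) over all genes, and with DESeq2 1.42.0 as an alternative. Stage contrasts fitted the 4 stages of 8 libraries together, class contrasts fitted class and library, and HH11 entered as values only. The fits were tested on simulated data. A log2 change is from edgeR, its SE the change over the square root of F. Summed shares got no test. Other work used Python 3.11.15, pandas 2.3.3, numpy 2.4.6, scipy 1.17.1 and scikit-learn 1.9.0.

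Members and lists were chosen with earlier results of these data known. Named by rule were the 5 largest rises and falls among members called with 1 direction in every replicate, the paralogs and their partners, the stalk genes, RPS27A, RPS6, RPL5, RPL11 and RPL38. The lists were initiation and elongation factors, ribosome biogenesis, mitochondrial ribosomal proteins and growth signalling. Some genes of the rule and lists are not reported by name here. Alternatives changed the tool, the scaling, the filters, the doublet removal, the free RNA, the class markers and the block, or left out a library.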

Additional observations from a re-analysis of the deposited data

Results flagged for a closer look

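In 6 of 67 members the change of 7ss against HH5 differed between TWIST1 cells and SOX21 cells by a test of the difference itself (edgeR, log2 scale, library as a block, 4 libraries). It was called higher in 1 member, where 11.9% of 10814 genes were, and lower in 5, where 14.0% were. Members were thus called less often than genes in general. The value was 0.51 in RPS27L, with a smaller fall in TWIST1 cells. It was -0.41 in RPL7L1, with a smaller rise in TWIST1 cells. It was -0.27 in RPL5, -0.23 in RPL21, -0.22 in RPL6 and -0.18 in RPL29. RPL7L1 kept its call in 13 of 15 alternatives, RPS27L in 11, RPL5 in 11, RPL21 in 9, RPL6 in 9 and RPL29 in 3. Mitochondrial UMIs were 7.75% and 8.62% in the TWIST1 cells of 7ss and 7.77% and 7.77% in the SOX21 cells. Median UMIs per cell at 7ss were 9177.5 and 5687.5 in TWIST1 cells, against 2386 and 2537 in SOX21 cells. At HH5 they were 6880 and 1866 in TWIST1 cells, against 6893 and 2249 in SOX21 cells. The part of depth and of mitochondrial UMIs in the differences was not tested.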

How the results depend on the processing

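Counts over all genes moved with the tool as well. For 7ss against HH5, edgeR called 1143 of 12561 genes in all cells and DESeq2 1990. The counts were 824 and 1127 of 10796 in SOX21 cells, and 1108 and 1063 of 9975 in TWIST1 cells. Against SOX21 cells, with 10638 genes, they were 2697 and 2897 for DLX5, 4220 and 4443 for TWIST1, and 3974 and 3850 for SOX17. Those of several other alternatives are not reported here. Counts of called members moved as follows. For 7ss against HH5 in all cells, 3 members were called, 7 with DESeq2. In SOX21 cells 3 were called, 6 with DESeq2 and 12 without a filter on low counts. In TWIST1 cells 2 were called, 8 with DESeq2 and 11 without the filter. For the difference of stage changes 6 were called, 3 without the filter, 10 with a mitochondrial limit of 15%, 10 with marker panels and 2 with at least 2 UMIs of the marker. For DLX5 against SOX21 cells 12 were called, 39 with DESeq2 and 20 scaled on other genes. For TWIST1 against SOX21 cells 14 were called, 22 with DESeq2, 23 without TMM factors and 28 with marker panels. For SOX17 against SOX21 cells 23 were called, 12 with DESeq2, 40 without the filter, 15 with the mitochondrial limit, 10 in cells of at least 2000 UMIs and 2 with at least 2 UMIs of the marker.

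With the replicate number as a block, 7ss against HH5 gave 1 member in all cells and 1 in SOX21 cells, 2 in TWIST1 cells, and 0 at 1ss and 4ss. The deviations of same-numbered libraries correlated between -0.0859 and 0.0418, so the numbers did not pair them. Without the library block, the difference of stage changes, DLX5 and TWIST1 comparisons gave 0 members and SOX17 gave 1.

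With 1 library left out, the count ranged from 0 to 0 at 1ss, 0 to 2 at 4ss (2 without 4ss replicate 1), and 0 to 9 at 7ss. It ranged from 0 to 9 in SOX21 cells and 0 to 7 in TWIST1 cells. In SOX21 cells it was 0 without HH5 replicate 2 or any of the 1ss and 7ss libraries, 5 without HH5 replicate 1, and 7 and 9 without 4ss replicate 1 and 2. In TWIST1 cells it was 0 without HH5 replicate 2 or either 7ss library, 1 without either 1ss library, 6 without HH5 replicate 1, and 6 and 7 without 4ss replicate 1 and 2. A stage left with 1 library was assumed to vary like the others. The count ranged from 1 to 4 for the difference of stage changes (1 without 7ss replicate 2, 3 without HH5 replicate 2), 8 to 11 for DLX5, 10 to 23 for TWIST1 and 12 to 23 for SOX17.

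The share of 7ss minus HH5 was -1.60 points in all cells, -2.24 in cells of at least 2000 UMIs, -2.16 after subtraction of free RNA and -0.71 as a mean over cells. In SOX21 cells it was -2.03 points, and -1.03 as a mean over cells. With 1 library left out it ranged from -1.95 to -1.25 points in all cells and from -2.67 to -1.39 in SOX21 cells. The class differences ranged from 0.43 to 0.57 for DLX5, -0.48 to -0.35 for TWIST1 and -0.04 to 0.25 for SOX17. Named members had the same direction in all alternatives and lost their call in 125 cases and kept it in 491. The limits are 2 libraries per stage, the spread between them, and 57 to 973 cells in the SOX17 sums.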

Other observations

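RPS15A, a small subunit protein, had 12075 CPM in HH5 replicate 2 and between 3240 and 4976 CPM in the other 8 libraries. RPLP0, the anchor of the ribosomal stalk, had 797 and 1868 CPM in the 7ss libraries, and its share of ribosomal protein UMIs differed by 1.20 on the log2 scale between them. RPL4, of the large subunit, had 656 and 1467 CPM in the same 7ss libraries, 529 and 1021 CPM at 4ss, and 1653 CPM at HH11. RPL5 had 2035 CPM at HH11 and between 1097 and 1395 CPM in the other 8 libraries. These values were chosen after the data were seen, and no test was made on them.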
